A study of Ovis aries with 8 samples.

Results

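The 4 genes described here, GNLY, CD247, IFNG and GATA3, are genes of T and natural killer cells that were followed in the lungs of sheep fetuses. They are 4 of the 956 genes that could be named on the array, and were represented by 10 of its 15008 probes, found by gene name or by a probe description naming granulysin, NK-lysin, the CD3 zeta chain, interferon gamma mRNA or GATA3. Of these 10 probes 8 were bright enough to enter the test over all probes. GNLY had 4 probes, and CD247, IFNG and GATA3 had 2 each.

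The lungs came from 4 sets of twins at about 130 days of gestation, where term is 147 days. In each set the aldosterone fetus was infused over 48 hours with 0.2 mg of aldosterone and its twin was a vehicle control, and infusions began 5 days after surgery in both groups. Breed and genotype are not given in the sources used here. Each group held 4 lungs, each hybridised to its own 1-colour array, and the comparison asks whether 48 hours of raised aldosterone changed gene expression in the fetal lung. The labels give every lung a replicate number, and same-numbered lungs of the 2 groups are called pairs below.

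T cells recognise antigen through a receptor whose signal is passed into the cell by the CD3 chains and by the zeta chain, which CD247 encodes and which natural killer cells use with other receptors. Cytotoxic T cells and natural killer cells store granulysin, the product of GNLY, in granules with perforin and granzymes and release it onto target cells. Both cell types secrete interferon gamma, the product of IFNG, which activates macrophages and antigen presentation. GATA3 is the transcription factor that directs type 2 helper T cells and type 2 innate lymphoid cells, and it also acts in epithelial and other non-lymphoid cells. In ruminants granulysin is also called NK-lysin, and cattle carry several copies of its gene. Whether these probes also bind transcripts of such copies in sheep was not tested.

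The probes of GNLY and GATA3 are shown to make plain which of them overlap. They are printed from 5′ to 3′ as listed for the array, and capitals mark the bases that a probe shares with the other probe made from the same transcript.
GNLY probe 1: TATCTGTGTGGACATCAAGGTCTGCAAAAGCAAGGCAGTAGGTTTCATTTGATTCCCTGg
GNLY probe 2: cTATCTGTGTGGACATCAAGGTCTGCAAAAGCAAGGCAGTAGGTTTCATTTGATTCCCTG
GNLY probe 3: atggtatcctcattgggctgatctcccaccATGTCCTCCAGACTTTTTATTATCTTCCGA
GNLY probe 4: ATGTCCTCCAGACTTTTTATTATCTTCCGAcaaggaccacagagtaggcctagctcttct
GATA3 probe 1: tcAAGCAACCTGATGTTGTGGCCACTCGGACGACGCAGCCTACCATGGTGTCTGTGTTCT
GATA3 probe 2: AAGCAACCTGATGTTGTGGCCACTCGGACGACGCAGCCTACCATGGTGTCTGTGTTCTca
GNLY probes 1 and 2 were made from the RefSeq granulysin mRNA, start at its bases 401 and 400, and share 59 of 60 bases. GNLY probes 3 and 4 were made from a single cDNA library read of lymph draining the sheep stomach that the array's annotation assigns to GNLY, and share 30 bases. That read is described as a 3′ read, and whether its letters run along the granulysin mRNA or against it was not tested. If they run against it, GNLY probes 3 and 4 would not read the mRNA that probes 1 and 2 read. The GATA3 probes share 58 bases and the CD247 probes 40, so neither pair gives independent readings. The 2 IFNG probes share no stretch of 12 or more bases and start at bases 538 and 729 of the mRNA.

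All values are log2 signals less the 75th percentile of the array, so that 0 is the level of the spot at that percentile. With 4 arrays a group, their number sets the precision, and the share of spots well above background ran from 76.49% to 85.41%. The lung epithelial markers SFTPC, SFTPA1 and SFTPB were well above background on all 8 arrays. Of the T cell markers in the list used here, CD3D, CD3E, CD3G, CD5, LCK and CD247 entered the test. CD4 was not well above background on any of the 8 arrays. GNLY was the only natural killer cell marker of the list with a named probe, so the presence of that cell type rests on 1 gene that cytotoxic T cells share. In a whole lung, fewer cells of a type and less RNA per cell cannot be told apart.

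Granulysin had the widest range of the 4 genes. GNLY probe 1 read -4.16, -4.06, -5.07 and -4.23 in control lungs 1 to 4, and -0.84, -2.70, -5.12 and -2.36 in aldosterone lungs 1 to 4. Aldosterone lungs 1, 2 and 4 lay above every control lung, and aldosterone lung 3 lay below every control lung. The mean log2 difference of aldosterone minus control was 1.62 ± 0.76 (limma SE, n = 4 per group, 95% interval -0.10 to 3.35), a 3.08-fold ratio, with an adjusted p of 1.0 in limma.

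GNLY probe 2, which differs from probe 1 by 1 base at each end, gave the same picture. It read -4.16, -4.19, -5.13 and -4.39 in the control lungs and -0.82, -2.65, -4.94 and -2.27 in the aldosterone lungs. The log2 difference was 1.80 ± 0.73 (95% interval 0.13 to 3.46), the adjusted p in limma was 1.0 and the unadjusted p in limma 0.0372. The exact two-sided permutation test gave p = 0.143 for probe 1 and p = 0.114 for probe 2, where 0.0286 is the smallest p that 4 against 4 lungs allow. That test, here and below, sets the pairing aside. The exact sign-flip test over the 4 pairs gave p = 0.25 for probe 1 and p = 0.125 for probe 2. With 4 pairs 0.125 is the smallest p it can give. The adjusted p is corrected over all probes tested, so it does not measure the spread between lungs alone. Neither exact test gave a p under 0.05, a level that the sign-flip test cannot reach with 4 pairs.

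By pair, GNLY probe 1 differed by 3.32, 1.36, -0.05 and 1.87 and probe 2 by 3.34, 1.53, 0.18 and 2.13. The twins of pair 3 were both low, each the lowest of its group. The size rested on single lungs. Without aldosterone lung 1 the difference fell to 0.99 on probe 1 and 1.18 on probe 2, and without aldosterone lung 3 it was 2.41 and 2.55. Weighting arrays by their quality gave 0.72 and 0.92, and normexp with quantile normalization gave 1.08 and 1.06. On the first row of the slide, which held pairs 1 and 2, probe 1 differed by 2.34, and on the second row by 0.91.

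GNLY probe 3, from the library read, did not follow probes 1 and 2. With the strand of that read untested, neither probe 3 nor probe 4 can be taken as a second measure of granulysin mRNA. Probe 3 read -4.58, -4.13, -4.23 and -4.28 in the controls and -4.08, -4.69, -4.0 and -4.11 in the aldosterone lungs. Its log2 difference was 0.08 ± 0.19 (95% interval -0.34 to 0.51), and it turned to -0.01 without control lung 1. Over the 8 lungs its Pearson correlation with probe 1 was -0.01. GNLY probe 4 was not well above background on any control array and was so only on aldosterone array 1, where it read -6.03 against -9.12 to -8.05 on the other aldosterone arrays and -9.06 to -8.72 on the control arrays. No fold is given for it, since the control mean of -8.91 lay below -6.89 and the aldosterone mean of -8.04 below -6.62. These limits are the means, over each group's arrays, of the lowest signal called well above background. The Pearson correlation of probe 4 with probe 1 over the 8 lungs was 0.81 and the Spearman rho 0.29. Of its 8 readings 7 lay below the lowest signal called well above background on their array. The lung with the highest reading on probes 1, 2 and 4 was the same one, aldosterone lung 1. Whether probe 4 reads the same mRNA as probes 1 and 2 was not tested.

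**Figure D1:**
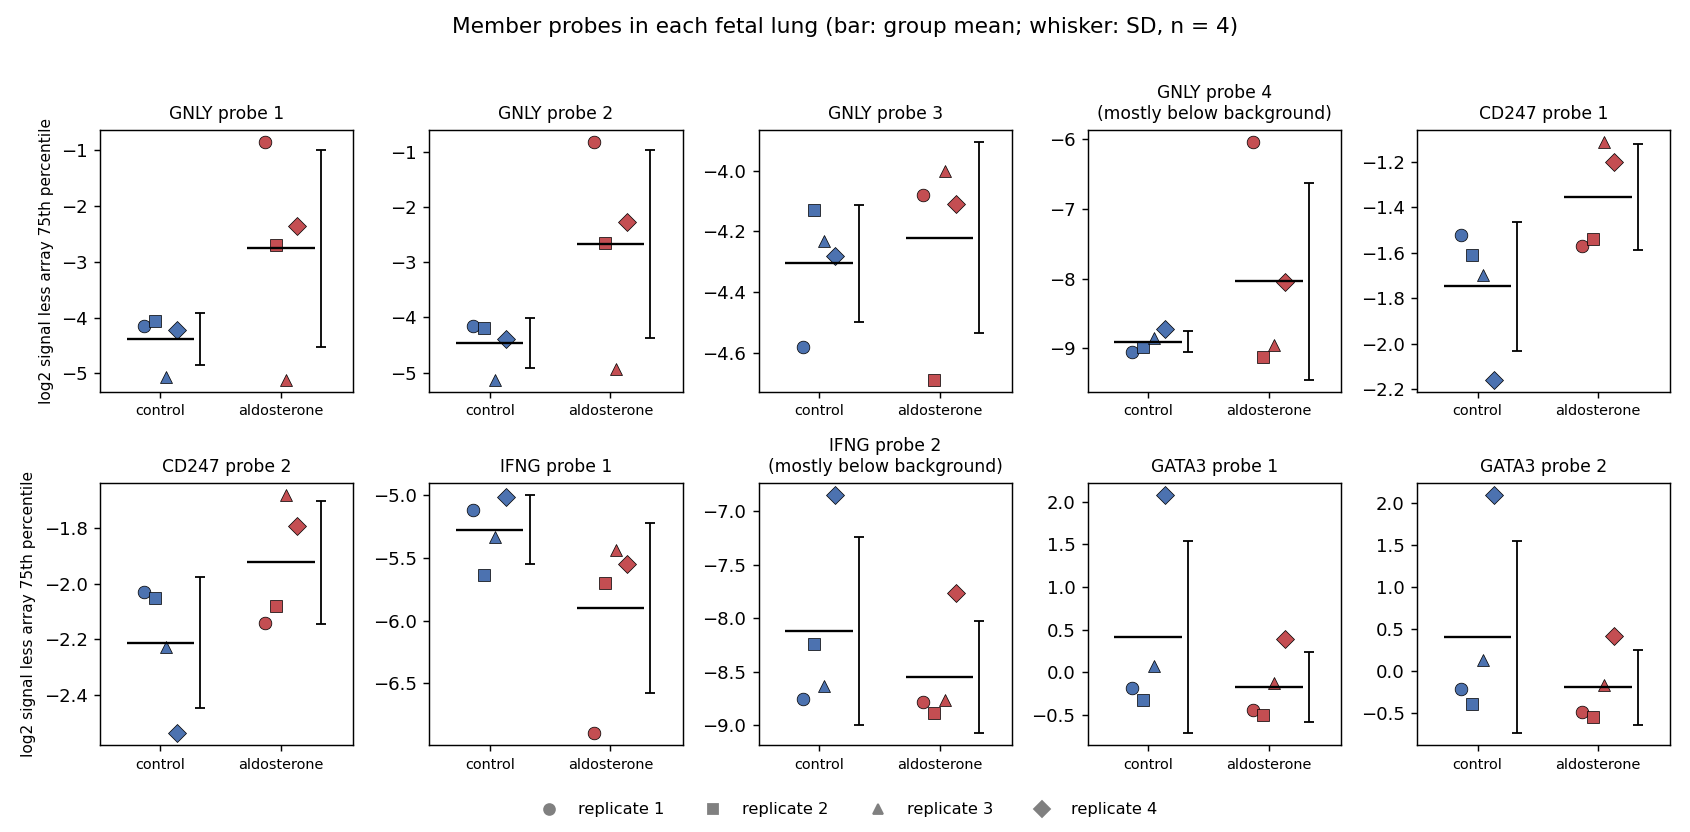
Each panel shows 1 probe, with the log2 signal less the array's 75th percentile on the vertical axis and the 2 groups on the horizontal axis. Points are lungs, marker shapes are replicate numbers, bars are group means and whiskers are SDs (n = 4). On GNLY probes 1 and 2 aldosterone lungs 1, 2 and 4 stand above the controls, and on GATA3 control lung 4 stands alone at 2.08.

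CD247, the zeta chain of the T cell receptor complex, was measured by 2 probes that overlap. CD247 probe 1 read -1.52, -1.61, -1.70 and -2.16 in the controls and -1.57, -1.54, -1.11 and -1.20 in the aldosterone lungs. Aldosterone lungs 3 and 4 were above every control, and the groups overlapped. The log2 difference was 0.39 ± 0.19 (95% interval -0.03 to 0.81, 1.31-fold), with an adjusted p of 1.0 in limma and an exact permutation p of 0.0857. CD247 probe 2 gave 0.29 ± 0.17 (95% interval -0.10 to 0.68). The differences by pair were -0.04, 0.06, 0.59 and 0.96 on probe 1, so that pairs 1 and 2 were near 0 and pairs 3 and 4 were not. Those sets of pairs lay on different rows of the slide, and the difference was 0.01 on the first row and 0.78 on the second. Without control lung 4, the lowest of the 8, the difference was 0.26.

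The other chains of the same receptor did not share that order. CD3E, the epsilon chain, read -0.06, -0.10, -0.35 and -1.58 in the controls and -0.53, -0.27, -1.15 and -0.46 in the aldosterone lungs, a log2 difference of -0.08 ± 0.35. CD3D, the delta chain, gave -0.26 ± 0.39, and CD3G, the gamma chain, -1.02 ± 0.81. Control lung 4 was the lowest control for CD247, CD3E, CD3D and CD3G, at -2.16, -1.58, -3.98 and -3.14. Aldosterone lung 3, which had the highest CD247 level, had the lowest of its group for CD3E at -1.15, for CD3D at -3.89 and for CD3G at -6.06. Over the 8 lungs CD247 correlated with CD3E at a Pearson r of 0.29, with CD3D at 0.10, with CD3G at -0.33 and with the kinase LCK at 0.62. These points share arrays and their scaling, and the values are descriptions.

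Interferon gamma mRNA was near the limit of the array. IFNG probe 1 read -5.12, -5.64, -5.33 and -5.01 in the controls and -6.90, -5.70, -5.44 and -5.55 in the aldosterone lungs. Every array but that of aldosterone lung 1, the lowest of the 8, had it well above background. The log2 difference was -0.62 ± 0.32 (95% interval -1.34 to 0.10), the adjusted p in limma 1.0 and the exact permutation p 0.0857. The reading was lower in the aldosterone lung of 4 of 4 pairs, by -1.78, -0.05, -0.11 and -0.55, so most of the mean came from pair 1. Without aldosterone lung 1 the difference was -0.29, with array weights -0.28, and after normexp and quantile normalization -0.16.

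IFNG probe 2 was well above background on 1 array, that of control lung 4, where it read -6.85. The other 3 controls read -8.76, -8.24 and -8.63 and the aldosterone lungs -8.78, -8.89, -8.77 and -7.77. The reading of -7.77 came from aldosterone lung 4, on whose array the undetected CD4 probes read -7.99 and -7.79 and the undetected IL4 probes -8.0 and -7.85, so it is a background reading with no order against the others. No fold is given, since the control mean of -8.12 lay below -6.89 and the aldosterone mean of -8.55 below -6.62, the same limits as above. The lung with the highest GNLY reading, aldosterone lung 1, was the one with the lowest reading of IFNG probe 1. The Pearson correlation of these 2 probes over the 8 lungs was -0.81 and the Spearman rho -0.71, given as a description.

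GATA3 was set apart by 1 lung. GATA3 probe 1 read -0.19, -0.33, 0.07 and 2.08 in the controls and -0.45, -0.50, -0.13 and 0.39 in the aldosterone lungs. Control lung 4 was the highest of the 8 and its aldosterone twin was the second highest. The log2 difference was -0.58 ± 0.50 (95% interval -1.72 to 0.56), the adjusted p in limma was 1.0 and the exact permutation p 0.486. All 4 pairs were lower after aldosterone, by -0.26, -0.17, -0.20 and -1.68. Without control lung 4 the group difference was -0.02, without both lungs of pair 4 it was -0.21, and with array weights it was -0.13. GATA3 probe 2 gave -0.60 ± 0.52 and the same order of lungs, as its shared bases would lead to.

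**Figure D2:**
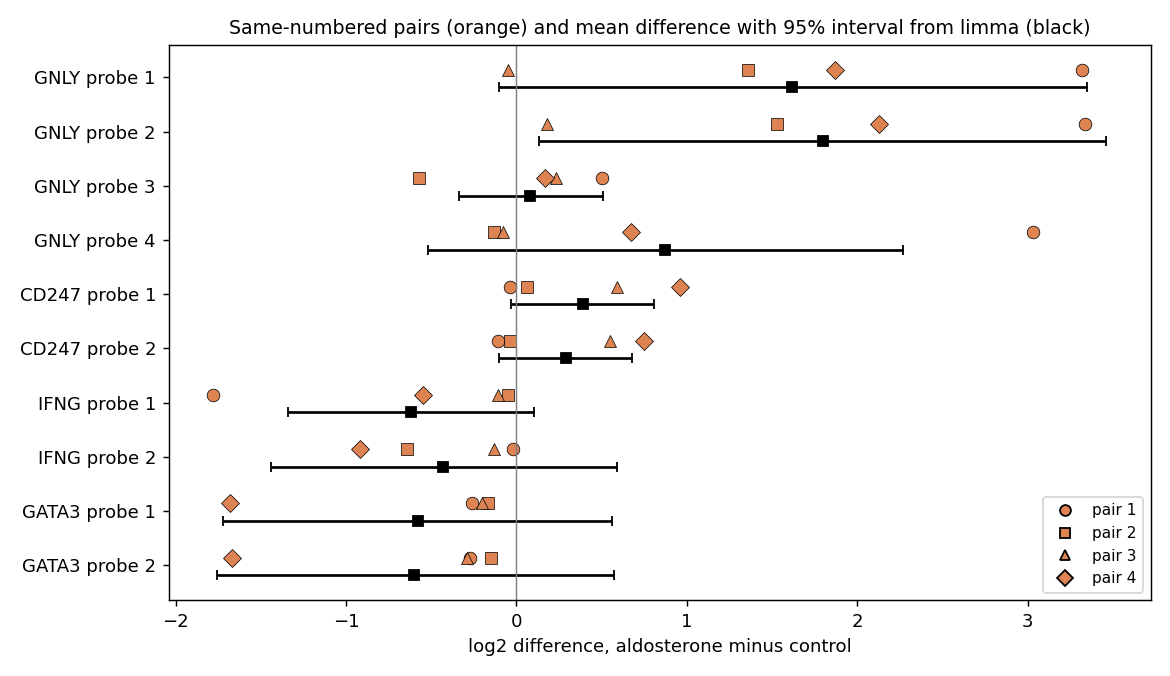
The horizontal axis is the log2 difference of aldosterone minus control. Orange markers are the 4 same-numbered pairs and black squares are group differences with limma's 95% interval. The interval of GNLY probe 2 alone lies above 0, from 0.13 to 3.46, and pair 4 carries the GATA3 difference at -1.68 and -1.67.

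Of the 12168 probes in the limma fit, 0 (0.0%) passed the adjusted threshold of 0.05, among them 0 of the 8 member probes. An unadjusted limma p under 0.05 was reached by 228 probes, or 1.87%, with 1.27% higher and 0.6% lower after aldosterone, and by 1 member probe, GNLY probe 2, which was higher. These probes were 155 higher and 73 lower, and in the authors' values, centred on array medians, 88 higher and 115 lower. With the replicate number as a block that share was 4.43%, with 2.82% higher and 1.61% lower, and it took in GNLY probes 1 and 2, both higher. Aldosterone and control lungs did not overlap for 1.31% of probes, 0.855% higher and 0.452% lower, and for 0 of the 8 member probes. A log2 difference of 1 or more in either direction was seen for 0.477% of probes, and for GNLY probes 1 and 2. The aldosterone lung was lower in 4 of 4 pairs for 5.64% of probes, and for IFNG probe 1 and both GATA3 probes. It was higher in 4 of 4 pairs for 7.67%, and for GNLY probe 2. The 4 pairs pointed one way for 13.3% of all probes and for 4 of the 8 member probes. The member probes are not independent, since those of GATA3 share 58 bases, so the 2 shares cannot be compared.

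Of the 38 genes of the list for the T cell receptor complex and its signalling, 12 had named probes and 9 were tested. The mean was higher after aldosterone for 4 and lower for 5, 0 passed the adjusted threshold, and the median log2 difference was -0.08, where it was 0.00735 over all probes tested and 51.5% of all probes had a higher mean. Beside CD247 and the CD3 chains, LCK, the kinase that starts receptor signalling, gave 0.19 ± 0.22. SLAMF1, a co-receptor of lymphocytes, gave 0.27 ± 0.25, and CTLA4, an inhibitory receptor of activated T cells, -0.27 ± 0.33. The co-stimulatory receptor CD28, like CD4, was not well above background on any of the 8 arrays. The summed linear signal of the 6 T cell markers, in units of the array's 75th percentile, ran from 1.02 in control lung 4 to 2.03 in control lung 1, and from 1.26 in aldosterone lung 3 to 2.03 in aldosterone lung 4.

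The list of natural killer and cytotoxic cells had 4 of its 42 genes on the array by name and 3 tested, of which 2 had a higher and 1 a lower mean, 0 passed, and the median was 0.01. XCL1, a chemokine that activated cytotoxic cells release, gave -0.33 ± 0.21 and was lower in 4 of 4 pairs. FCER1G, a signalling chain of Fc and natural killer receptors that myeloid cells also carry, gave 0.01 ± 0.30, a value that changed sign when arrays were centred on their medians. TBX21, the transcription factor of type 1 and cytotoxic lymphocytes, was well above background on 1 control array and 0 aldosterone arrays with its brighter probe. So neither companion gene followed GNLY in aldosterone lung 1, where XCL1 read -4.16 and FCER1G 0.03, the lowest of their group.

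Markers of other blood cells were read beside these genes. In each of their lists the summed levels of the groups overlapped, and 0 markers passed the adjusted threshold. The 5 neutrophil markers summed to 6.32 to 27.6 in the controls and 4.14 to 8.18 in the aldosterone lungs, and all 5 had a lower mean after aldosterone, with a median log2 difference of -1.07. These 5 were the tested ones of 13 listed. In limma 3 of the 5 had an unadjusted p under 0.05, against 1.87% of all probes, and 0 passed the adjusted threshold. Those 3, CATHL3, SC5 and BAC5, are cathelicidins, as is CATHL1B, and LTF was not among them. Genes of the same family are not independent markers, so the share is a description. CATHL3, a cathelicidin of neutrophil granules named after its values were seen, read 1.0, 2.5, 1.99 and 0.51 in the controls and 0.45, 0.37, 0.06 and 0.34 in the aldosterone lungs, so its groups did not overlap. Its log2 difference was -1.20 ± 0.39, with an adjusted p of 1.0 in limma. The exact permutation p was 0.0286, the smallest that 4 against 4 lungs allow when the pairing is set aside. The exact sign-flip test over the 4 pairs gave p = 0.125, the smallest that 4 pairs allow. Of the mast cell and basophil markers both that were tested had a lower mean. FCER1A, a chain of the IgE receptor, gave -0.99 ± 0.49, and KIT gave -0.07 ± 0.28. MS4A2, of the same list, did not pass the filter and went the other way. It was well above background on 1 array only, that of aldosterone lung 1, where it read -4.57. On the other aldosterone arrays it read -9.22 to -8.23 and on the control arrays -9.18 to -7.94. The macrophage and monocyte markers summed to 0.59 to 0.869 in the controls, and to 0.663, 2.10, 0.634 and 0.786 in aldosterone lungs 1 to 4. The red cell markers summed to 9.07 to 40.1 in the controls and 6.50 to 30.1 in the aldosterone lungs. Their part in the differences of GNLY, CD247, IFNG and GATA3 was not tested.

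**Figure D3:**
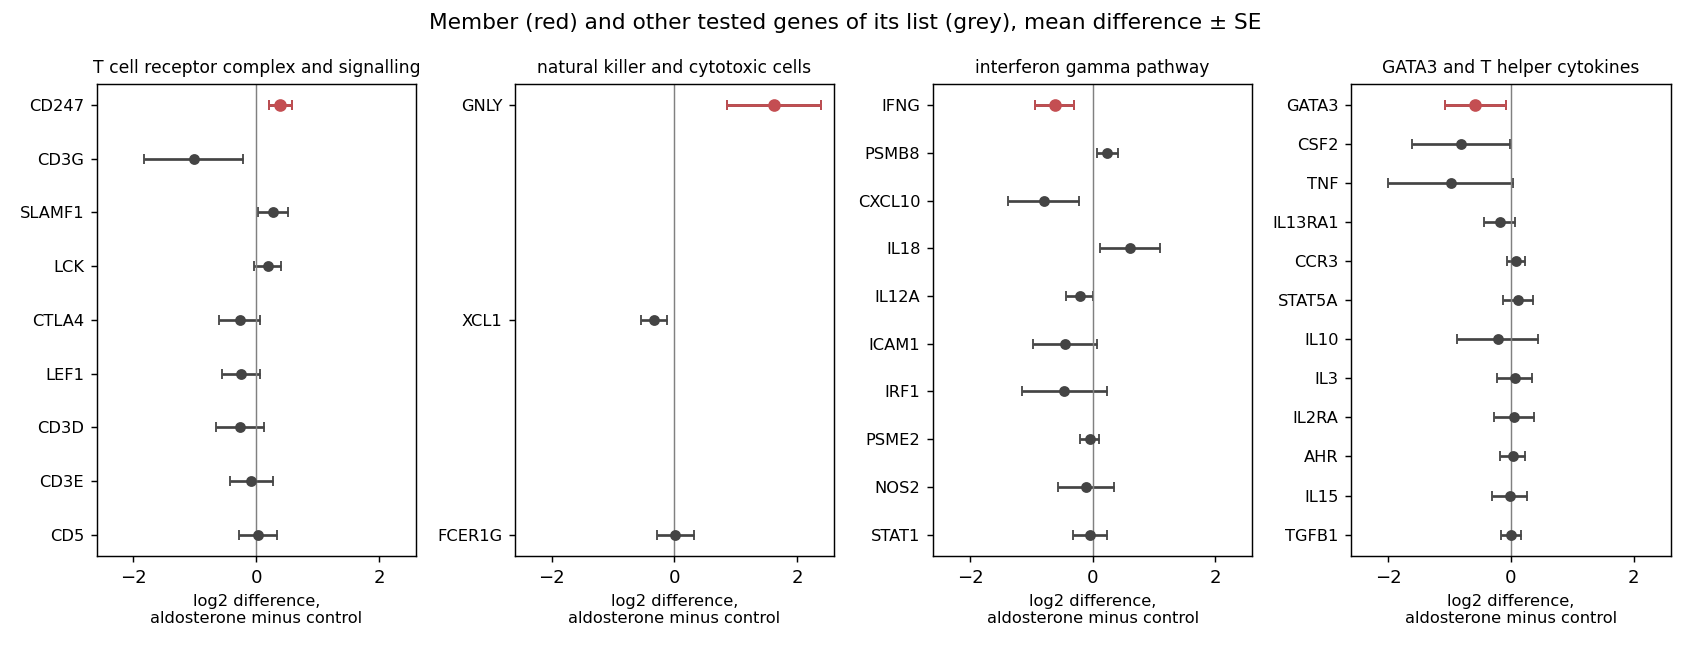
Each panel is 1 gene list, with the log2 difference of aldosterone minus control on the horizontal axis and limma's SE as bars. The member gene is red and the other tested genes are grey. GNLY at 1.62 stands to the right of XCL1 at -0.33 and FCER1G at 0.01, while CD247 at 0.39 lies to the right of the CD3 chains.

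The interferon gamma pathway list had 11 of its 42 genes on the array and 10 tested, of which 2 had a higher and 8 a lower mean, 0 passed, and the median was -0.16. CXCL10, a chemokine induced by interferons, read -1.15, -0.28, -1.17 and 0.88 in the controls and -0.89, 0.02, -2.07 and -1.99 in the aldosterone lungs, a log2 difference of -0.80 ± 0.58. IL18, which induces interferon gamma with IL12, gave 0.61 ± 0.49 and was higher in 4 of 4 pairs. IL12A, a subunit of that inducer, gave -0.21 ± 0.22, and PSMB8, an interferon-inducible subunit of the immunoproteasome, 0.24 ± 0.17. Without control lung 4 the split was 6 higher and 4 lower. IRF1 read 1.42 and ICAM1 3.04 in that lung, against -2.06 to -1.60 and 0.43 to 0.85 in the other controls, and these 2 genes are named after their values were seen.

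The list of GATA3 and T helper cytokines had 16 of its 39 genes on the array and 12 tested, with 5 higher and 7 lower means, 0 passing and a median of -0.01. IL2, IL4 and IL5, cytokines of helper T cells, were below background on all 8 arrays, and IL13 was well above it on 2 control arrays and 1 aldosterone array. TNF, the inflammatory cytokine, read -2.22, -2.30, -2.61 and 2.36 in the controls and -3.01, -1.54, -2.29 and -1.83 in the aldosterone lungs, a log2 difference of -0.98 ± 1.02. CSF2, a growth factor for myeloid cells, gave -0.81 ± 0.80, the receptor chain IL13RA1 -0.18 ± 0.25, and CCR3, the eotaxin receptor, 0.08 ± 0.15. Without control lung 4 the split of this list was 8 higher and 4 lower.

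The named genes whose levels ran most like each member over the 8 lungs were taken from 772 others by Pearson correlation. For GATA3 they were NFKBIA, the inhibitor of NF-kappa-B that NF-kappa-B itself induces (r = 0.981, rho = 0.976), the receptor CD40 (r = 0.970, rho = 0.881) and CSF2 (r = 0.955, rho = 0.643). NFKBIA read 1.28, 1.22, 1.31 and 5.04 in the controls and 1.21, 1.20, 1.70 and 2.43 in the aldosterone lungs. Without both lungs of pair 4, the 2 farthest from the GATA3 median, r was 0.48, 0.68 and 0.48, so the likeness rested largely on that pair. The array of control lung 4 had the largest share of spots well above background, 85.41%, and that of its twin the smallest, 76.49%, and their part in this pattern was not tested.

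**Figure D4:**
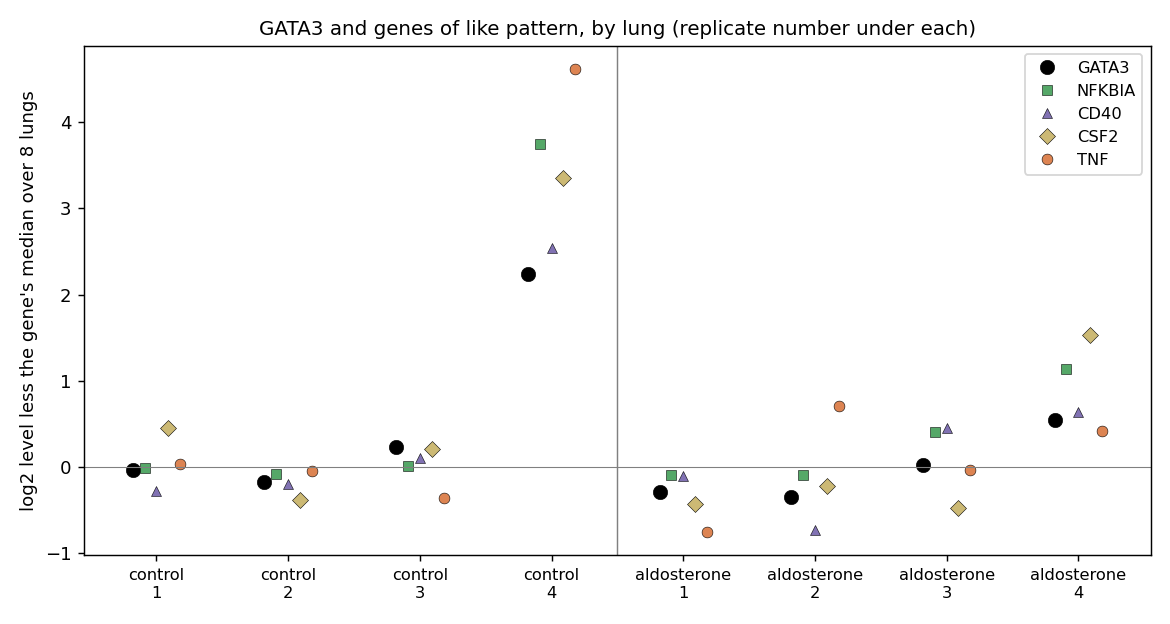
The vertical axis is the log2 level less the gene's median over the 8 lungs, and the horizontal axis lists the lungs by group and replicate number. GATA3 (black) and NFKBIA, CD40, CSF2 and TNF are highest in control lung 4, where GATA3 reads 2.08 and NFKBIA 5.04 before centring.

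For GNLY the nearest genes were CYP3A24, a drug and steroid oxidising enzyme (r = 0.815, rho = 0.667), CCR3 (r = 0.801, rho = 0.857) and ME1, the cytosolic malic enzyme (r = 0.801, rho = 0.857). Without aldosterone lungs 1 and 4 these r values were 0.66, 0.56 and 0.54. For CD247 they were ZGPAT (r = 0.868, rho = 0.690), prolactin, PRL (r = 0.849, rho = 0.667), and a gene listed as UNC (r = 0.831, rho = 0.810). Without control lung 4 and aldosterone lung 3 they were 0.46, 0.80 and 0.77. For IFNG they were BCAT1, which acts on branched-chain amino acids (r = 0.953, rho = 0.810), AANAT, an enzyme of melatonin synthesis (r = 0.878, rho = 0.929), and a prostaglandin receptor variant listed as EP4c (r = 0.871, rho = 0.762). Without aldosterone lung 1 and control lung 4 they were 0.70, 0.73 and 0.43. Some readings of PRL and EP4c lay below the lowest signal called well above background on their array. For PRL these were control lungs 3 and 4 and aldosterone lung 4. For EP4c they were control lung 2 and aldosterone lung 1. All these points share arrays and scaling, and picking the highest of many values favours high ones. Of these 12 genes CSF2 and CCR3 belong to the list of GATA3 and T helper cytokines.

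**Figure D5:**
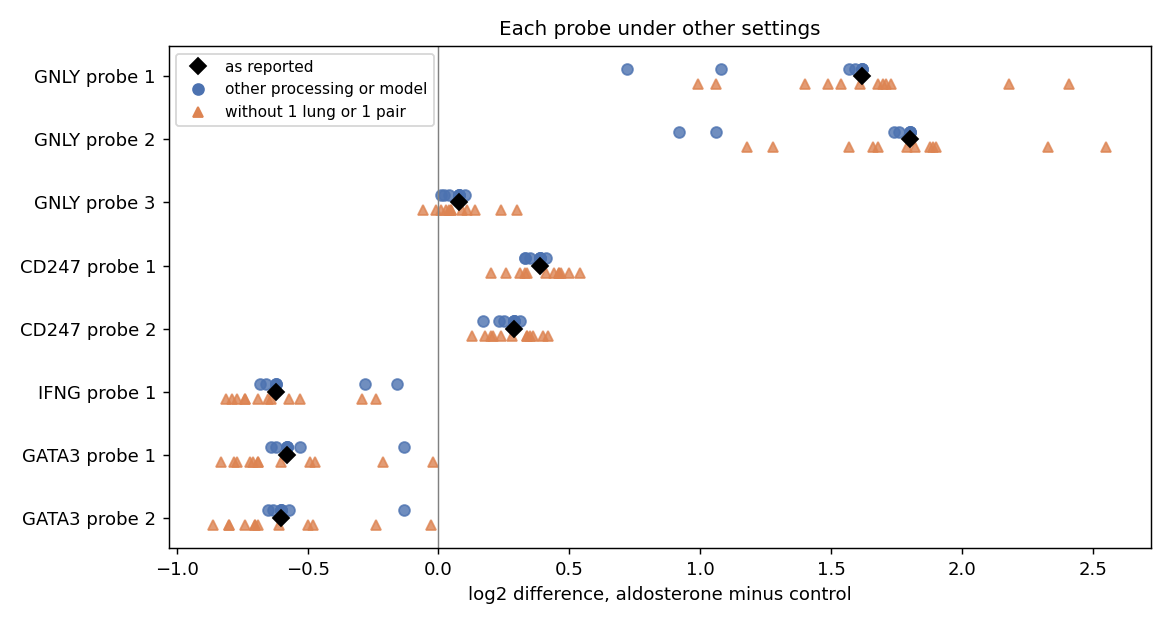
The horizontal axis is the log2 difference of aldosterone minus control for the 8 tested probes. Black diamonds are the values reported, blue circles other processing or models, and orange triangles values without 1 lung or 1 pair. GNLY probe 1 spans 0.72 to 2.41, GATA3 probe 1 -0.83 to -0.02, and only GNLY probe 3 crosses 0.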

How the data were processed

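Cy3-labelled RNA from 8 fetal lungs, 450 ng each, was read on 8 Agilent 1-colour arrays of 1 slide. Per the file headers, the authors' deposited spot intensities come from Agilent Feature Extraction, version 10.1.1.1, with spatial and multiplicative detrending and surrogate values for dim spots switched on and its background correction setting switched off, so levels near background are set partly by that software. A second deposited table by the authors is in log2 units: each array's median is 0, and the values are those intensities on the log2 scale shifted by 1 number per array. Depth does not apply to arrays. Here log2 processed intensity less the array's 75th percentile was taken over 15208 non-control spots, outlier flags were left out (74 values), and spots of a probe were averaged. Probes well above background on at least 4 arrays entered limma 3.58.1 (R 4.3.3; lmFit, eBayes, two-sided, Benjamini-Hochberg over 12168 probes, threshold 0.05), with group alone in the model. The 2 dim member probes were fitted without the filter, and for genes outside the members the brightest probe was used.

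The submitters name twins but do not say that the number marks the set. Same-numbered lungs correlated at 0.275 to 0.538 after group means were removed, others at -0.449 to 0.204, so numbers were taken as pairs. Genes were named through a RefSeq table of the assembly ARS-UI_Ramb_v3.0 and a short table of older names. Members and lists were chosen with earlier results of these data known. Named genes were the members, up to 4 genes per list by smallest p, and 3 per member by likeness. The fit was run on simulated data with independent, normally spread lungs. Those data lack the pairs and single far lungs seen here, so the run does not cover them.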

Additional observations from a re-analysis of the deposited data

Results flagged for a closer look

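In 84 groups of 4 lungs examined for the members and for genes named with their values, 11 had 1 lung far from the other 3 by Dixon's test. IRF1, ICAM1 and 6 other genes were added to this count because the text names them after their values were seen. Overlapping probes and genes picked for likeness to a member were counted too. MS4A2 and KIT, also named after their values were seen, were not counted. The rate of about 1 in 20 for independent, unselected groups is therefore no yardstick here. Among the members the lungs set apart were control lung 3 for GNLY probe 1 at -5.07, aldosterone lung 2 for GNLY probe 3 at -4.69 and control lung 4 for GATA3 probe 1 at 2.08. IFNG probe 2 in aldosterone lung 4, at -7.77, is also past the limit but is a background reading.

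Control lung 4 was also far above the other controls for TNF at 2.36, NFKBIA at 5.04, CD40 at 1.08, IRF1 at 1.42 and ICAM1 at 3.04. Aldosterone lung 4 was set apart as the highest of its group for CSF2 at -4.82 and PSMB8 at -0.48. For PSMB8 the rest of the group lay close together at -0.76 to -0.73, so the distance was small.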

How the results depend on the processing

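No member probe passed the adjusted threshold in limma under any alternative tried. GNLY probe 3 turned sign, at -0.01 without control replicate 1 and -0.06 without both lungs of replicate 1, and over all left-out lungs ran from -0.06 to 0.30. The other 7 tested member probes kept their sign. GNLY probe 4 and IFNG probe 2, which did not pass the filter, were fitted in the unfiltered table and given as means without each pair, with no other scaling, weighting or single left-out lung, and kept their sign there. With the replicate number as a block, GNLY probe 2 kept its log2 difference of 1.80 with an SE of 0.47 and an adjusted p of 0.878, and the block changed no call at the adjusted threshold. All probes at an unadjusted p under 0.05 were 155 higher and 73 lower. They were 343 and 196 with the replicate block, 830 and 452 with array weights, 88 and 115 in the authors' values, 244 higher with the slide row as a block, and 48 lower among probes well above background on all arrays. Leaving out 1 lung gave 86 to 279 higher and 56 to 150 lower.

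The natural killer list turned from 2 higher and 1 lower to 1 and 2 with array medians, the authors' values, array weights, or without the replicate 2 lung of either group. The interferon gamma list had 5 and 5 with array weights, and 2 to 6 higher and 4 to 8 lower with 1 lung left out. The T helper list had 3 higher after normexp and quantile normalization and in the authors' values, 8 without the filter, and 3 to 8 higher with 1 lung left out, 4 to 9 lower. Leaving out both lungs of a number was chosen after seeing the data.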

Other observations

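CR2, a complement receptor of B cells and follicular dendritic cells and the only named B cell marker measured, was chosen here after its values were seen. It read -5.31, -6.01, -5.54 and -2.70 in control lungs 1 to 4 and -5.28, -4.99, -6.12 and -2.53 in aldosterone lungs 1 to 4. Both lungs of pair 4 were high and the group difference was 0.16 ± 0.89 (limma SE, n = 4 per group). IL10, a cytokine that dampens inflammation, was highest in control lung 4 at -2.15 and next in aldosterone lungs 2 and 4, at -3.02 and -3.56, with the other 5 lungs at -5.04 to -4.22.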
